A study of Mus musculus with 16 samples.

Results

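The genes described here make, bind and break down hyaluronan in primary mouse mammary fibroblasts. They were chosen by symbol, from a list of 9 symbols: the synthases HAS1, HAS2 and HAS3, the receptor CD44, the hyaluronan-binding protein TNFAIP6, the hyaluronidases HYAL1 and HYAL2, and versican under its old symbol CSPG2 and its present one VCAN. Of these, 6 have a value in the table of 18132 genes, namely HAS1, HAS2, HYAL1, HYAL2, CD44 and VCAN. HAS3, TNFAIP6 and the symbol CSPG2 were not analysed here.

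Hyaluronan is a long, unbranched sugar polymer of the extracellular matrix, built at the plasma membrane by the hyaluronan synthases and pushed out of the cell as it grows. Hyaluronidases cut it, the surface receptor CD44 ties cells to it, and large proteoglycans such as versican bind along it and hold water around it. Fibroblasts are a main source of hyaluronan in connective tissue, and its deposition in the stroma of breast tumors is well known.

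The cells came from the inguinal mammary glands of female 129S6 mice aged 8 to 10 weeks, either MEKK1+/+ or MEKK1-/-. MEKK1 is a kinase, encoded by MAP3K1, that acts upstream of JNK and other MAP kinases, and how the MEKK1-/- allele was made is not given in the sources used here. Cultures in DMEM with 10% fetal bovine serum either stayed in that medium (untreated) or were exposed for 8 h to conditioned medium (CM), the same medium after growth of MDA-MB-231 cells, a human breast cancer line, in it. Each of the 4 combinations was measured on 4 Illumina Mouse 8 arrays, 16 in all, to ask which genes CM changes and whether MEKK1 matters for them. The methods give 3 mice per genotype for 4 cultures per condition, so some cultures share a mouse, the spread below is between cultures, and a p value measures that spread. The glands had been digested with collagenase and hyaluronidase before culture, in every group.

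All levels below are log2 intensities after quantile normalization between arrays, which gives every array the same distribution of values, and a difference of 1 is a 2-fold difference in brightness. Olfactory receptor genes, 1075 in the table, served as genes without signal, and their 99th percentile, here the level without signal, was 7.20 to 7.34 depending on the array. Array medians as deposited ran from 114 to 170.1, and arrays of one group correlated at 0.979 to 0.996. Of 12 fibroblast markers, 11 were above the level without signal on every array. Macrophage markers were present as well, 7 of 16 above that level on every array and 3 (ITGAM, FCER1G and PTPRC) on none. Their summed intensity ran from 14386 to 44329 on untreated MEKK1+/+ arrays, 11529 to 37723 on MEKK1+/+ arrays with CM, 6004 to 29305 on untreated MEKK1-/- arrays and 5683 to 25931 on MEKK1-/- arrays with CM. Epithelial markers summed to between 817 and 877 on all MEKK1+/+ arrays but reached 9478 on MEKK1-/- arrays. In cultures of this kind a change in the number of cells of a type and a change in RNA per cell cannot be told apart.

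The transcript of the deleted gene, MAP3K1, had no lower values under the MEKK1-/- label. Untreated MEKK1+/+ arrays averaged 7.71 ± 0.19 and untreated MEKK1-/- arrays 8.24 ± 0.15 (SD, n = 4 each), a difference of 0.53 with an adjusted p of 0.465 by limma. Single arrays ran from 7.51 to 7.95 and from 8.06 to 8.41 in these 2 groups, and with CM from 7.42 to 8.18 in MEKK1+/+ and from 7.79 to 8.29 in MEKK1-/- cells. The part of the transcript that the probe reads is not given in the sources used here, so the value neither checks the deletion nor replaces the label, and the genotype below is that of the labels.

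Across the 6 genes the 2 synthases moved in opposite directions when CM was added. HAS2 fell and HAS1 was higher, while the hyaluronidase HYAL2 differed little between any groups on the normalized values. In MEKK1-/- cells 1 of the 6 genes, HAS2, passed an adjusted p of 0.05 by limma, against 4.69% of all genes tested. In MEKK1+/+ cells 1 of 6, VCAN, passed it, against 5.01% of all genes. Over both genotypes together, a comparison chosen after the values had been seen, 3 of 6 passed: HAS2 was lower, and HAS1 and VCAN were higher, against 12.5% of all genes. The median change of the 6 genes was 0.17 in MEKK1+/+ and 0.19 in MEKK1-/- cells, with a median of -0.00 over all genes in both comparisons.

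**Figure D1:**
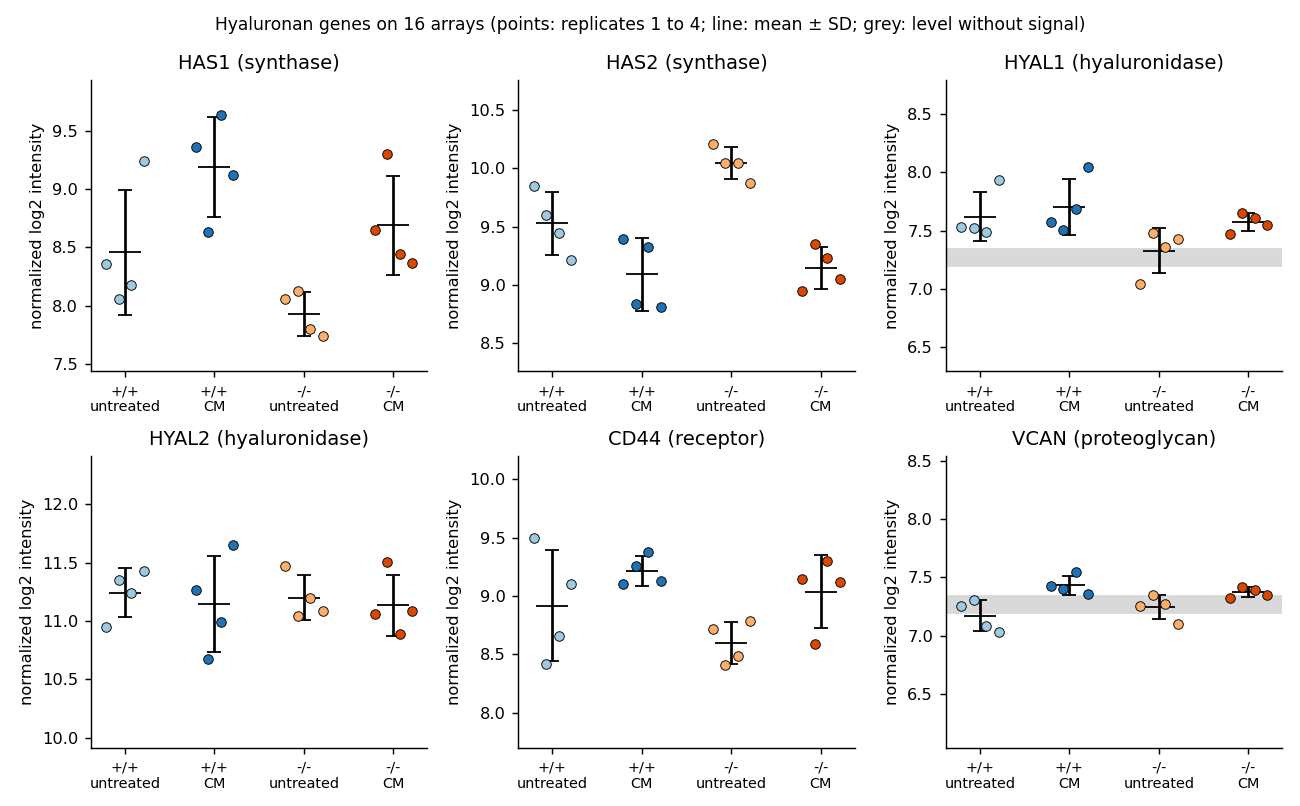
Normalized log2 intensity (vertical axis) of the 6 hyaluronan genes in the 4 groups (horizontal axis), with a point per array, replicates 1 to 4 from left to right, the mean as a horizontal line and the SD as a bar. The grey band, 7.20 to 7.34, is the level without signal. HAS1 points are higher and HAS2 points lower with CM, HYAL2 groups overlap one another, and VCAN lies just above, in or below the band, from 7.03 to 7.54.

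HAS2, which makes most of the long hyaluronan of embryonic and connective tissue, gave the largest change of the 6 genes in MEKK1-/- cells. On untreated MEKK1-/- arrays its level was 10.21, 10.05, 10.05 and 9.87 for replicates 1 to 4, and with CM it was 8.95, 9.35, 9.23 and 9.06. Every untreated array was above every CM array. The group means were 10.04 ± 0.14 and 9.15 ± 0.18 (SD, n = 4 each), so HAS2 fell by 0.90 on the log2 scale (standard error 0.15, 95% interval -1.22 to -0.57), or 1.86-fold. The adjusted p was 0.00332 by limma, where adjusted means Benjamini-Hochberg over the whole table, and 2-sided exact permutation gave 0.0286, the smallest p that 4 arrays against 4 allow. On these arrays the replicate numbers paired the cultures, as described in the processing, and the differences within the 4 pairs were -1.26, -0.70, -0.82 and -0.82. Since the groups did not overlap, any pairing of these arrays would give less HAS2 with CM in each pair. Without the between-array normalization the change was as large, -0.93, but the adjusted p was 0.238 by limma.

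In MEKK1+/+ cells HAS2 was 9.85, 9.60, 9.45 and 9.22 on untreated arrays and 9.40, 8.83, 9.33 and 8.81 with CM. The 2 groups overlapped, since the lowest untreated array lay below the 2 highest CM arrays. The difference of -0.44 (standard error 0.15, 95% interval -0.76 to -0.11) did not pass, with an adjusted p of 0.132 by limma and an exact permutation p of 0.114. With the replicate numbers as a block within genotype the adjusted p was 0.0392 by limma, though whether the MEKK1+/+ numbers pair is uncertain. The test of whether the 2 genotypes responded differently gave an interaction of -0.46 (standard error 0.22), with an unadjusted p of 0.0489 and an adjusted p of 1.00 by limma. A larger fall in MEKK1-/- cells was therefore not established. On the values as deposited the difference in MEKK1+/+ cells was -0.85 and the interaction -0.08. Averaged over both genotypes HAS2 was lower by 0.67 (difference -0.67, standard error 0.11), with an adjusted p of 0.000740 by limma.

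HAS2 also differed between the labelled genotypes before treatment, by the order of its normalized arrays rather than by the adjusted test. All 4 untreated MEKK1-/- arrays, 9.87 to 10.21, were above all 4 untreated MEKK1+/+ arrays, 9.22 to 9.85, although the nearest arrays, 9.87 and 9.85, almost met. The difference was 0.52 (95% interval 0.19 to 0.84), with an exact permutation p of 0.0286 and an adjusted p of 0.465 by limma. The intensities as deposited overlapped, from 482 to 1430 in MEKK1+/+ and from 892 to 1196 in MEKK1-/- cells. Over the alternatives on the log2 scale with all arrays kept, the difference ran from 0.25 to 0.54. With CM the difference was 0.05 (95% interval -0.27 to 0.38). The order of the 4 group means from high to low was untreated MEKK1-/-, untreated MEKK1+/+, MEKK1-/- with CM and MEKK1+/+ with CM, and the last 2 did not differ beyond their spread.

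HAS1 encodes the synthase that in many cell types is low at rest and is induced by inflammatory cytokines. Its RefSeq promoter is shown because HAS1 is the synthase with higher values after CM. The 300 bases lie at chr17:17855139-17855438 on the minus strand of GRCm38.p6, 250 before and 50 after the annotated start. The capitals mark a cAMP response element (CRE), TGACGTCA, whose first base lies 83 bases before the start:
Has1: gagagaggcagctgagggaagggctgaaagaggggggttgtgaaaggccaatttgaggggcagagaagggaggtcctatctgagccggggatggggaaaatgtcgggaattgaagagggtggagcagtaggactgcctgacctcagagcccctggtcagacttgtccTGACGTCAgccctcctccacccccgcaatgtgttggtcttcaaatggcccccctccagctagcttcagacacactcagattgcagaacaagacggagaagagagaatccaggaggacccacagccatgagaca
The CRE was searched after this sequence had been seen, on both strands, and 1.79% of the 32851 promoters of this length in the table hold it. The AP-1 motif TGANTCA, a kappaB motif and the TATA box TATAAA had no match in this window, which says only that these letters are not in it. A match is a description of letters, and binding was not measured.

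The HAS1 level was 8.36, 8.06, 8.18 and 9.24 on untreated MEKK1+/+ arrays and 9.36, 8.63, 9.64 and 9.12 with CM. Replicates 1 to 3 of the untreated group were below every CM array, and replicate 4 lay among them. The means were 8.46 ± 0.54 and 9.19 ± 0.43 (SD, n = 4 each). The difference of 0.73 (standard error 0.26, 95% interval 0.17 to 1.29) did not pass, with an adjusted p of 0.147 by limma and an exact permutation p of 0.0857. Without untreated replicate 4 the difference was 0.99 and the adjusted p 0.0222 by limma, so the call depended on that array. With all arrays kept and array weights the adjusted p was 0.0355 by limma. The same array was also the highest of its group for GFPT2 at 10.89, HAPLN4 at 8.21 and PTX3 at 13.54, 3 genes of the hyaluronan pathway described below. It was the highest for ADAMTS4 too, at 11.39. For ADAMTS4, GFPT2 and HAPLN4 it was below every CM array of this genotype, whose lowest values were 12.57, 11.33 and 8.34. For PTX3 it lay among them. For VCAN it was the lowest of its group, at 7.03. The median of that array as deposited was 114, against 152 to 167 in the rest of its group. MEKK1+/+ arrays with CM had medians of 114 to 122.

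In MEKK1-/- cells HAS1 was 8.06, 8.13, 7.80 and 7.74 untreated and 8.65, 9.30, 8.45 and 8.36 with CM. Every CM array was above every untreated one. The difference was 0.76 (standard error 0.26, 95% interval 0.20 to 1.32), or 1.69-fold, with an exact permutation p of 0.0286 and an adjusted p of 0.132 by limma. Within the 4 pairs the differences were 0.60, 1.17, 0.64 and 0.63. With the replicate numbers as a block within genotype the adjusted p was 0.0488 by limma. That fit also blocked the MEKK1+/+ arrays, whose numbers did not pair by the check described in the processing. HAS1 and HAS2 were the 2 of 6 genes whose MEKK1-/- groups did not overlap, against 10.4% of all genes. The CM difference of HAS1 was nearly the same in both genotypes, with an interaction of 0.03 (95% interval -0.77 to 0.83). Over both genotypes HAS1 was higher by 0.74 (standard error 0.19), or 1.68-fold, with an adjusted p of 0.0142 by limma. On the values as deposited that difference was 0.54 with an adjusted p of 0.0526 by limma.

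HAS1 was lower on MEKK1-/- arrays than on MEKK1+/+ arrays in both conditions, without passing the test. The difference was -0.53 untreated (95% interval -1.09 to 0.03), with an adjusted p of 0.555 by limma, and -0.50 with CM (95% interval -1.06 to 0.06), with an adjusted p of 0.648 by limma. The order of the HAS1 means from high to low was MEKK1+/+ with CM, MEKK1-/- with CM, untreated MEKK1+/+ and untreated MEKK1-/-. Without untreated MEKK1+/+ replicate 4 the untreated genotype difference was -0.27, and with each array left out it ran from -0.66 to -0.27. The middle 2 groups, 8.69 ± 0.42 and 8.46 ± 0.54, overlapped. Replicate 2 had the lowest HAS1 and the lowest summed macrophage markers in both MEKK1+/+ groups (14386 and 11529). It had the highest of both in both MEKK1-/- groups (29305 and 25931). At the other end of each group no array was extreme in both measures. The part of these markers in the HAS1 values was not tested.

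The opposite movement of the 2 synthases can be read on each array, where a scaling shared by all genes largely cancels. The change of HAS1 minus that of HAS2 with CM was 1.16 on the log2 scale in MEKK1+/+ cells and 1.66 in MEKK1-/- cells. On the values as deposited it was 1.23 and 1.64. This quantity was chosen after the values had been seen and carries no test. Over the 16 arrays the levels of HAS1 and HAS2 correlated at r = -0.59, and at r = 0.20 once the group means were removed, a description over arrays that share 4 conditions.

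**Figure D2:**
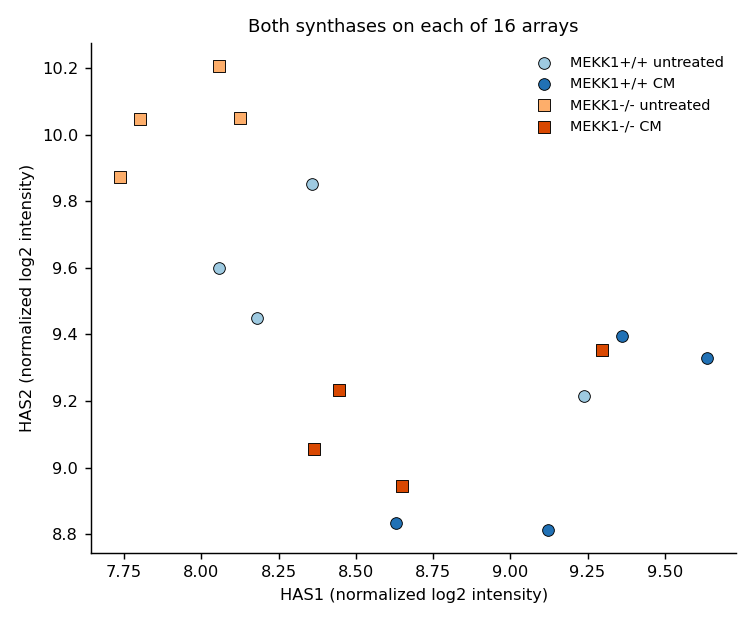
Normalized log2 intensity of HAS2 (vertical axis) against that of HAS1 (horizontal axis), with a point for each of 16 arrays, circles for MEKK1+/+ and squares for MEKK1-/-, and darker fill for CM. Untreated MEKK1-/- arrays lie at the upper left, with HAS2 at 9.87 or above, and CM arrays toward the lower right. Untreated MEKK1+/+ replicate 4, with HAS1 at 9.24 and HAS2 at 9.22, lies among the CM arrays.

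On the normalized values the hyaluronidases changed less with CM than either synthase in both genotypes. On the values as deposited this did not hold in MEKK1+/+ cells, where HYAL2 changed by -0.52 and HAS1 by 0.38. The median of all genes shifted by -0.28 there. HYAL2, which is anchored at the cell surface and cuts long hyaluronan into large pieces, was 10.95, 11.35, 11.24 and 11.43 on untreated MEKK1+/+ arrays and 11.27, 10.68, 10.99 and 11.65 with CM. In MEKK1-/- cells it was 11.47, 11.04, 11.20 and 11.08 untreated and 11.06, 11.50, 10.89 and 11.08 with CM. The 4 groups overlapped throughout. The CM difference was -0.10 (95% interval -0.49 to 0.29) in MEKK1+/+ and -0.06 (95% interval -0.45 to 0.33) in MEKK1-/- cells, with adjusted p of 0.883 and 0.936 by limma. The genotype differences were -0.05 untreated and -0.01 with CM, and the intervals leave room for changes of up to about 0.49 in size with CM. The Hyal2 promoter is shown beside that of Has1 because it holds a kappaB match although HYAL2 did not pass any test. It lies at chr9:107568913-107569212 on the plus strand of GRCm38.p6, from RefSeq, and the capitals mark the match, whose first base is 238 bases before the start:
Hyal2: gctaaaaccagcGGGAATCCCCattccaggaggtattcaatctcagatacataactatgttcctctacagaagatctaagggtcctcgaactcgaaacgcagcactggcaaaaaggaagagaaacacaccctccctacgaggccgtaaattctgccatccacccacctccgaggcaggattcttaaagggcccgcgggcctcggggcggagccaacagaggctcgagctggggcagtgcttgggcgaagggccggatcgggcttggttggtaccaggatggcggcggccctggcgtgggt
A kappaB match on either strand is found in 4.51% of promoters in the table. The promoter of Ptx3, a pathway gene described below, also held a kappaB match on each strand, at its start.

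HYAL1, the lysosomal hyaluronidase, was dim. Untreated MEKK1+/+ arrays gave 7.53, 7.52, 7.49 and 7.93, and those with CM gave 7.57, 7.51, 7.68 and 8.04. On untreated MEKK1-/- arrays it was 7.04, 7.48, 7.36 and 7.43, where 3 of the 4 were above the level without signal, and with CM it was 7.47, 7.65, 7.60 and 7.55. The untreated genotypes did not overlap, with every MEKK1-/- array below every MEKK1+/+ array. That difference was -0.29 (95% interval -0.56 to -0.02), with an exact permutation p of 0.0286 and an adjusted p of 0.520 by limma. With CM the genotype difference was -0.13, and the CM differences were 0.08 in MEKK1+/+ and 0.24 in MEKK1-/- cells, with adjusted p of 0.847 and 0.371 by limma. HAS2 and HYAL1 were thus the 2 of 6 genes whose untreated genotypes did not overlap, against 4.61% of all genes, and 0 of 6 passed the adjusted test, against 0% of all genes. At an unadjusted p of 0.05 by limma 2 of 6 passed, and 1680 of all genes, or 9.27%, did so too. With CM 0 of 6 passed the adjusted genotype test, against 0.00552% of all genes, 0 of 6 had an unadjusted p under 0.05, against 8.09%, and 0 of 6 did not overlap, against 4.17%.

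CD44, the main cell-surface receptor for hyaluronan, is carried by fibroblasts and by leukocytes. It was 9.49, 8.41, 8.66 and 9.10 on untreated MEKK1+/+ arrays and 9.10, 9.26, 9.38 and 9.12 with CM. The untreated arrays spanned more than 1 log2 unit, around the narrow range of the CM arrays. In MEKK1-/- cells CD44 was 8.71, 8.40, 8.49 and 8.78 untreated and 9.14, 8.58, 9.30 and 9.12 with CM, where 3 of the 4 treated arrays were above all untreated ones. The differences were 0.30 (95% interval -0.12 to 0.72) and 0.44 (95% interval 0.02 to 0.86), with adjusted p of 0.524 and 0.276 by limma. Over both genotypes the difference was 0.37 with an adjusted p of 0.107 by limma, 0.43 and 0.0328 with array weights, 0.46 and 0.0180 without untreated MEKK1+/+ replicate 1, and 0.45 and 0.0409 without MEKK1-/- replicate 2 with CM. Within untreated MEKK1+/+ cells the array with the highest CD44, replicate 1, was also the one with the highest summed macrophage markers (44329), and the array with the lowest CD44, replicate 2, had the lowest (14386). In the other 3 groups the array with the lowest CD44 had the highest sum: 9.10 with 37723 in MEKK1+/+ cells with CM, 8.40 with 29305 in untreated MEKK1-/- cells and 8.58 with 25931 in MEKK1-/- cells with CM. The part of the macrophage markers in the CD44 values was not tested. CD44 was lower on MEKK1-/- arrays by differences of -0.32 untreated and -0.18 with CM, with adjusted p of 0.628 and 0.831 by limma. The first was -0.13 without untreated MEKK1+/+ replicate 1 and -0.48 without its replicate 2, and the second was -0.03 without MEKK1-/- replicate 2 with CM. The table has 1 value per gene symbol, so isoforms of CD44, or of versican, could not be separated.

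VCAN, or versican, is a large proteoglycan whose end domain binds hyaluronan. It stayed at the edge of detection. Its level was 7.26, 7.31, 7.08 and 7.03 on untreated MEKK1+/+ arrays, 2 of them above the level without signal, and 7.43, 7.40, 7.54 and 7.35 with CM, all 4 above it. The groups did not overlap, which among the 6 genes in MEKK1+/+ cells was true of VCAN alone, against 9.7% of all genes. The difference of 0.26 (standard error 0.07), or 1.20-fold, had an adjusted p of 0.0442 by limma and an exact permutation p of 0.0286. It was -0.02 on the values as deposited, where the median of all genes was lower by 0.28 (a shift of -0.28) with CM. The adjusted p rose above 0.05 on leaving out any one of 7 of the 8 arrays compared, with values from 0.22 to 0.31 over the 8. In MEKK1-/- cells VCAN was 7.25, 7.35, 7.27 and 7.10 untreated, 1 of them above the level without signal, and 7.32, 7.42, 7.39 and 7.35 with CM, all 4 above it. The difference there was 0.13 with an adjusted p of 0.419 by limma, and the interaction was -0.13 (95% interval -0.35 to 0.08). Over both genotypes it was 0.19 with an adjusted p of 0.0161 by limma, and 0.05 with an adjusted p of 0.743 on the values as deposited. None of the 6 genes passed the adjusted interaction test by limma, against 0% of all genes, and HAS2 alone had an unadjusted p under 0.05, as did 473 of all genes (2.61%). The RefSeq promoters of Hyal1, Cd44 and Vcan held none of the 4 motifs searched, and that of Has2 was not printed here.

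**Figure D3:**
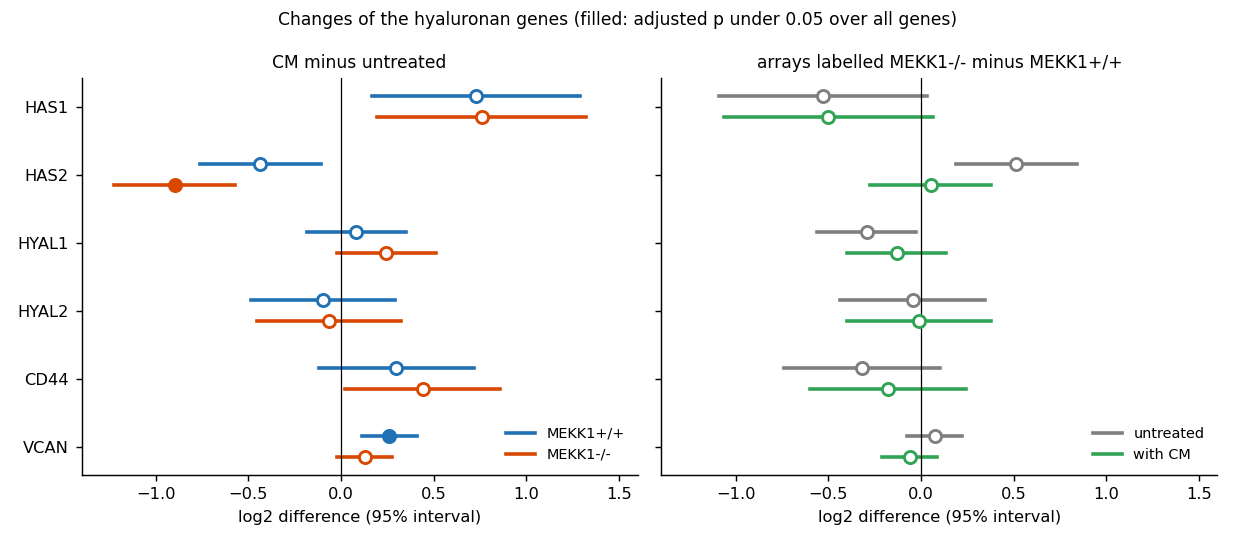
Log2 differences (horizontal axis) of the 6 genes with their 95% intervals from limma, for CM minus untreated (left, by genotype) and for arrays labelled MEKK1-/- minus MEKK1+/+ (right, by treatment). Filled points passed an adjusted p of 0.05 over all genes: HAS2 in MEKK1-/- cells at -0.90 and VCAN in MEKK1+/+ cells at 0.26. Both HAS1 intervals on the left lie above 0 and both HAS2 intervals below it.

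A wider list of 48 genes that supply, bind, cut or sense hyaluronan was read beside these 6, and 44 of them have values, 12 above the level without signal on every array and 24 on none. The list was written with earlier results of these data known. With CM 3 of the 44 passed in MEKK1+/+ cells and 4 in MEKK1-/- cells, each of them higher, against 5.01% and 4.69% of all genes in either direction. Between genotypes 0 of the 44 passed in either condition, against 0% of all genes untreated and 0.00552% with CM. The median change of the 44 was -0.00 in MEKK1+/+ and 0.01 in MEKK1-/- cells, with -0.00 over all genes in both comparisons.

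Among the genes of precursor supply, GFPT2 rose. GFPT2 encodes an isoform of the enzyme that commits fructose 6-phosphate to the hexosamine pathway, the source of one of the 2 sugars of hyaluronan. It was 10.26, 10.54, 10.59 and 10.89 on untreated MEKK1+/+ arrays and 11.44, 11.33, 11.53 and 11.58 with CM, and 10.51, 10.65, 10.58 and 10.45 on untreated MEKK1-/- arrays and 10.98, 11.40, 11.46 and 11.37 with CM. In both genotypes every treated array was above every untreated one. The rise was 0.90 (standard error 0.12) in MEKK1+/+ and 0.76 (standard error 0.12) in MEKK1-/- cells, with adjusted p of 0.000722 and 0.00224 by limma. On the values as deposited the differences were 0.48 and 0.67, with adjusted p of 0.0939 and 0.179 by limma. UDP-glucose dehydrogenase, UGDH, which makes the other sugar precursor, was at or below the level without signal on all 16 arrays, from 6.65 to 6.91. UAP1L1, a relative of the enzyme that makes UDP-N-acetylglucosamine, was the 1 gene of the list that passed lower over both genotypes, with a difference of -0.39 and an adjusted p of 0.0316 by limma.

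The Gfpt2 promoter is shown as that of a pathway gene that passed in both genotypes. It lies at chr11:49793905-49794204 on the plus strand of GRCm38.p6, from RefSeq, and the capitals mark an AP-1 match, TGACTCA, whose first base is 223 bases before the start:
Gfpt2: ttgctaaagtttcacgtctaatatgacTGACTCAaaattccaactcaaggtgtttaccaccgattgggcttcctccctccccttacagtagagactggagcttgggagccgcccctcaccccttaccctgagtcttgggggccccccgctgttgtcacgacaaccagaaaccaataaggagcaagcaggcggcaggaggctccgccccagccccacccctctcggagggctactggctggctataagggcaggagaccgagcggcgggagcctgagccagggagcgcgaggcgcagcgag
An AP-1 match is found in 7.81% of promoters in the table and a TATA box in 13.6%.

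Among the matrix partners, the link protein HAPLN4 and the pentraxin PTX3 were the 2 genes of 15 above the level without signal on every array. HAPLN4 belongs to a family that clamps proteoglycans to hyaluronan and is known mainly from brain. It was 7.57, 7.70, 7.86 and 8.21 on untreated MEKK1+/+ arrays and 8.52, 8.66, 8.34 and 8.76 with CM, and 7.50, 7.78, 7.99 and 7.76 on untreated MEKK1-/- arrays and 8.34, 8.77, 8.40 and 8.62 with CM. Neither genotype had overlapping groups. HAPLN4 rose by 0.73 (standard error 0.14) and 0.78 (standard error 0.14), with adjusted p of 0.00779 and 0.00551 by limma. On the values as deposited the differences were 0.41 and 0.72, with adjusted p of 0.0939 and 0.0606 by limma.

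PTX3 is a secreted pentraxin that helps to cross-link the hyaluronan matrix around the ovulated egg. It was 12.77, 11.39, 13.31 and 13.54 on untreated MEKK1+/+ arrays and 13.64, 13.35, 14.24 and 13.80 with CM. On MEKK1-/- arrays it was 12.15, 12.93, 11.68 and 11.74 untreated and 13.28, 13.87, 13.60 and 13.56 with CM, all 4 above every untreated array. It rose in MEKK1-/- cells by 1.45 (standard error 0.38), or 2.74-fold, with an adjusted p of 0.0419 by limma. The adjusted p exceeded 0.05 on leaving out any one of 6 of the 8 arrays compared, with values from 1.31 to 1.72 over the 8, and was 0.133 on the values as deposited. In MEKK1+/+ cells the difference was 1.00 with an adjusted p of 0.175 by limma. It was 0.55 without untreated replicate 2, and from 0.84 to 1.26 without any other array compared. With the replicate block within genotype its adjusted p was 0.0297 by limma, but the MEKK1+/+ numbers did not pair by the check. Replicate 2 had the lowest PTX3 and the lowest summed macrophage markers in both MEKK1+/+ groups (14386 and 11529), and the highest of both in both MEKK1-/- groups (29305 and 25931). At the other end of each group the same array was extreme in both measures only in untreated MEKK1-/- cells, and the part of these markers in the PTX3 values was not tested.

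The smallest p values of the wider list were those of a protease, ADAMTS4, which cleaves aggrecan and versican. It was 11.07, 11.18, 11.08 and 11.39 on untreated MEKK1+/+ arrays and 12.77, 12.71, 12.71 and 12.57 with CM, and 11.25, 11.30, 11.36 and 11.13 on untreated MEKK1-/- arrays and 12.49, 12.57, 12.91 and 12.65 with CM. The treated and untreated arrays were separated by more than 1 log2 unit in both genotypes. ADAMTS4 rose by 1.50 (standard error 0.09) in MEKK1+/+ and 1.40 (standard error 0.09) in MEKK1-/- cells, or 2.84-fold and 2.64-fold, with adjusted p of 9.81e-07 and 1.37e-06 by limma, and it passed under every alternative setting and with each array left out. Of the 4 receptors other than CD44 with values, 0 were above the level without signal on every array, and LYVE1, the receptor of lymphatic vessels, was at or below it on all 16, from 6.58 to 6.89. The turnover enzymes HEXA, GUSB and TMEM2 were above that level on every array.

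**Figure D4:**
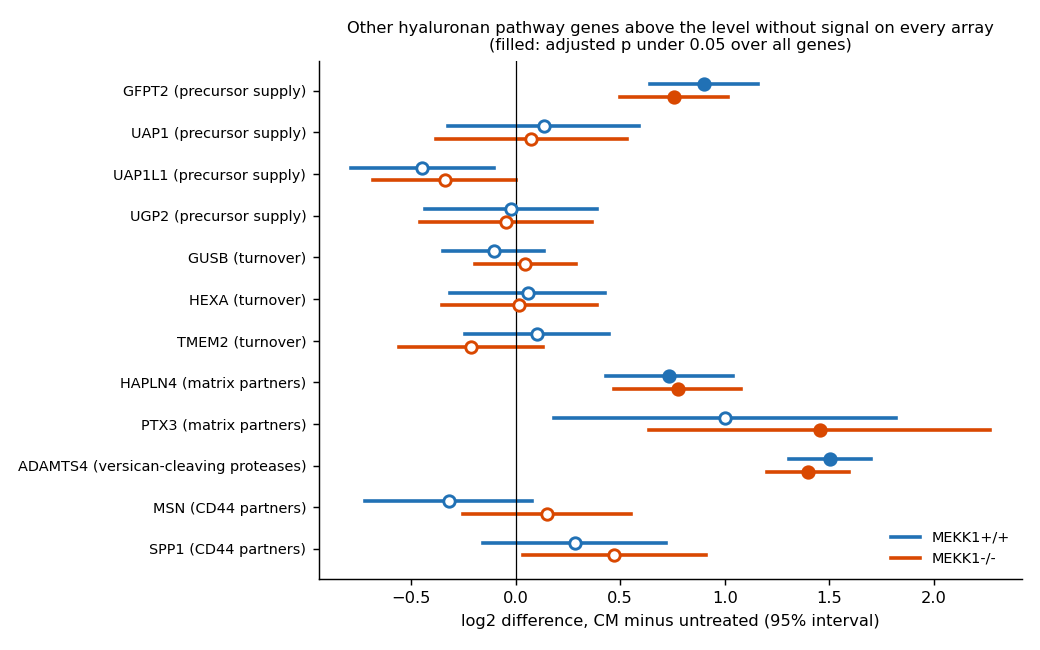
Log2 differences, CM minus untreated (horizontal axis), with 95% intervals from limma, of the 12 other hyaluronan pathway genes above the level without signal on every array, MEKK1+/+ in blue and MEKK1-/- in orange. Filled points passed an adjusted p of 0.05 over all genes. GFPT2, HAPLN4 and ADAMTS4 are filled in both genotypes, PTX3 in MEKK1-/- cells at 1.45, and the remaining 8 genes in neither.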

How the data were processed

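The authors deposited a linear intensity per gene symbol and array, normalized by a core facility. The normalization method, background treatment and joining of probes are not given in the sources used here. Intensities were turned to log2 and quantile normalized between arrays, without a filter. The 4 groups, taken from the labels, entered 1 linear model over 18132 genes in limma 3.58.1 (lmFit, eBayes; R 4.3.3; 12 residual degrees of freedom). Adjusted p values follow Benjamini-Hochberg over all genes, with 0.05 as the threshold. Named genes also had 2-sided exact permutation tests, 4 arrays against 4. The steps were tested on simulated data. Array number limits the precision, and 0 columns were identical.

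The hyaluronan genes and the lists were chosen with earlier results of these data known. Named were the 6 genes, MAP3K1, pathway genes past the threshold with PTX3, UGDH and LYVE1, and the 3 genes most correlated with each bright member. UAP1L1 was added after its value was seen. A gene of the wider list is not reported here.

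Same-numbered arrays were checked as pairs by the correlation, across genes, of their deviations from group means. For MEKK1-/- cells it was 0.505, 0.403, 0.219 and 0.251, all above 0.1, so the numbers were taken as pairs there. The pairing comes from this check alone. For MEKK1+/+ cells it was -0.04, 0.48, 0.12 and 0.58, which did not pass. The check had no unlike-numbered arrays for comparison, so failing it does not show that the numbers are unpaired. Summed macrophage markers of MEKK1+/+ replicates 1 to 4 were 44329, 14386, 36523 and 25775 untreated. With CM they were 37723, 11529, 34710.5 and 26400, in the same order of arrays. Whether the MEKK1+/+ numbers pair is uncertain.

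Alternatives were the values as deposited, a shared median, z-scores, the z-test of the methods, a pseudocount of 16, normexp with an offset of 50, genes above the median level, only the 2 groups compared, trend and robust eBayes, array weights, a replicate block, and each array left out. Promoters are those of RefSeq for GRCm38.p6, with 5 of the 6 genes matched. Figures were drawn with matplotlib 3.10.9.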

Additional observations from a re-analysis of the deposited data

Results flagged for a closer look

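HYAL1 in untreated MEKK1+/+ cells had an array apart from the others: replicate 4 was at 7.93, while the other 3 lay between 7.49 and 7.53. It was the 1 of 24 groups of 4 arrays in which the highest or lowest array stood this far from the rest, and chance gives about 1 in 20 such groups.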

How the results depend on the processing

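The fall of HAS2 in MEKK1-/- cells kept its direction in every alternative and passed in all but the values as deposited, -0.93 with an adjusted p of 0.238 by limma, and with each array left out (-0.97 to -0.83). The number of the 6 genes past the threshold in MEKK1+/+ cells was 1, but 0 on the values as deposited, with a shared median, with z-scores, by the z-test of the methods, over genes above the median level, with only the 2 groups and with trend and robust eBayes, and 2 with array weights. The gene added with array weights was HAS1 (adjusted p 0.0355 by limma). Leaving out an array gave 0 to 1. In MEKK1-/- cells it was 1, and 0 on the values as deposited. Over both genotypes it was 3, with 1 on the values as deposited, 0 by the z-test and 4 with array weights, where CD44 passed (0.43, adjusted p 0.0328 by limma). Leaving out an array gave 3 to 4. With the replicate block within genotype the count was 2 in each genotype, HAS2 in MEKK1+/+ cells (-0.44, adjusted p 0.0392 by limma) and HAS1 in MEKK1-/- cells (0.76) being added, and over all genes the calls rose from 909 to 1481 and from 851 to 1438. The block changed the call of HYAL1 over both genotypes as well (0.16, adjusted p 0.0395). The cause was not tested. The MEKK1+/+ numbers did not pair by the check. A block over all groups ended 1 call, PTX3 in MEKK1-/- cells (adjusted p 0.0716). On the values as deposited, where the median of all genes shifted by -0.28 with CM in MEKK1+/+ cells and by 0.28 between genotypes with CM, these differences turned: in MEKK1+/+ cells with CM HYAL1 (-0.23), CD44 (-0.09) and VCAN (-0.02), between genotypes with CM HYAL1 (0.12), HYAL2 (0.05) and VCAN (0.21), the interaction of VCAN (0.14), and HYAL1 over both genotypes (-0.01). HAS2 between genotypes with CM was -0.12 with a shared median and -0.01 with array weights, which also turned the interactions of HAS1 (-0.18) and HYAL2 (-0.01). Leaving out an array turned only differences that had not passed: HYAL1 (-0.03 to 0.19) and HYAL2 (-0.27 to 0.06) with CM in MEKK1+/+ cells, HYAL2 in MEKK1-/- cells (-0.19 to 0.03), HYAL2 between genotypes untreated (-0.14 to 0.02) and with CM (-0.17 to 0.16), HAS2 between genotypes with CM (-0.04 to 0.15), and the interactions of HAS1 (-0.23 to 0.18), HYAL2 (-0.12 to 0.20) and CD44 (-0.05 to 0.31). Leaving out 1 array of the MEKK1-/- groups also ended the VCAN call in MEKK1+/+ cells for 6 of the 8 arrays (0.26 to 0.27). GFPT2 in MEKK1-/- cells and HAPLN4 in both genotypes lost their calls by the z-test (adjusted p 0.0988, 0.113 and 0.0843) as well as on the values as deposited. PTX3 in MEKK1+/+ cells gained one by the z-test (adjusted p 0.000742) and by the block within genotype (0.0297). VCAN, and HYAL1 on 1 array, lay at the level without signal, where small differences are least certain.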

Other observations

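The genes whose levels followed the bright hyaluronan genes most closely over the 16 arrays were read off among 6922 genes above the level without signal on every array, as a description over arrays that share 4 conditions. HAS1 was nearest to RNF25 (r = 0.906), SLCO3A1 (r = 0.905) and IRAK3 (r = 0.888), the last of which encodes an inhibitory kinase of Toll-like receptor signalling. HAS2 was nearest to PRDM4 (r = 0.879), ADRA2A (r = 0.878) and EIF5 (r = 0.878). HYAL2 was nearest to MARCH6 (r = 0.894), RABEP2 (r = 0.860) and CAPZB (r = 0.859). CD44 had the lowest values of the 4, with LOC100047261 (r = 0.834), PRUNE (r = 0.827) and GYPC (r = 0.799). None of these nearest genes is in the hyaluronan lists used here.

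HAS1 and HYAL1 were also alike over the 16 arrays (r = 0.67), and HAS2 and HYAL1 unlike (r = -0.66). With the group means removed these values were 0.43 and -0.43.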
